A study of Mus musculus with 4 samples.

Results

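The genes described here are 6 genes known from Schwann cells and other glia, *Mbp*, *Sox10*, *Pmp22*, *Mag*, *Cnp* and *Fabp5*, which were picked by their gene symbols out of the 23997 genes of the RNA-Seq table. Their FPKM (the count of sequenced fragments scaled to transcript length and to library size) was compared between 2 populations of hair cell (HC) progenitors sorted from the mouse cochlea on the third postnatal day. Lgr5+ progenitors were the EGFP+ cells of Lgr5-EGFP-IRES-creERT2 mice, in which the *Lgr5* locus drives EGFP together with a tamoxifen-dependent Cre, and Lgr6+ progenitors were the EGFP+ cells of Lgr6-EGFP-IRES-CreERT2 mice, in which the *Lgr6* locus drives the same pair. The labels give C57BL/6 as the strain and cochlea as the tissue for both, and list 2 libraries for each population, 4 in all. The methods of the study instead describe that the RNA of each population was divided into more fractions than this to serve as replicates, so the libraries may be technical repeats and their number is uncertain. Each gene has a single FPKM per population, which already combines the libraries, so no spread between replicates is known and no difference below has a replicate check or a *p*-value.

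Schwann cells wrap peripheral axons in myelin, a stack of membrane that is held together by a small set of abundant proteins. The transcription factor Sox10 is needed to form the peripheral glial lineage, and together with Egr2 it drives the genes of the myelin sheath. In the cochlea, Schwann cells and satellite glia accompany the spiral ganglion neurons and their fibres, which reach the sensory epithelium. Several genes used as glial markers, including *Sox10*, *Fabp7* and *S100b*, are also known from cochlear supporting cells (SCs), so none of them alone separates glia from SCs.

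All 6 genes reached 1 FPKM in one population or both and were kept, as were 13436 of all genes. The Lgr5+ value of log2(FPKM + 1) was subtracted from the Lgr6+ value, so that changes at low FPKM come out smaller than they are, and a gene was called when this difference reached 1.5-fold. Of the 6 genes, 4 were called, against 51.8% of the kept genes. The structural myelin genes *Pmp22*, *Mbp* and *Cnp* were called as higher in Lgr6+ progenitors, 3 of the 6 genes against 28.5% of the kept genes. *Mag*, also a myelin gene, was called as higher in Lgr5+ progenitors, 1 of the 6 genes against 23.3% of the kept genes. *Sox10* and *Fabp5* were within 1.5-fold. The median log2 difference was 0.88 over the 6 genes and 0.03 over the kept genes. *Pmp22* and *Mag* passed the filter through 1 population alone, so a difference was built into their being kept, and 4 of the 6 genes reached 1 FPKM on both sides.

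**Figure D1:**
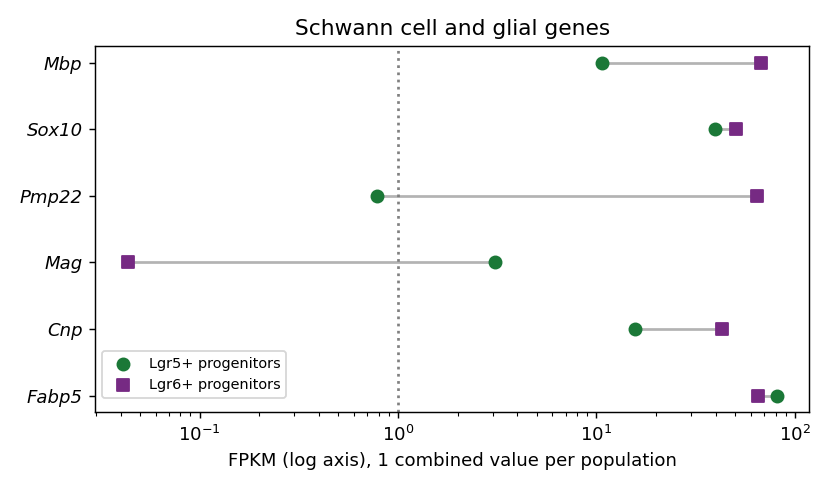
FPKM of each of the 6 genes on a log axis, with a circle for Lgr5+ progenitors and a square for Lgr6+ progenitors, each 1 combined value with no error bar, and a dotted line at an FPKM of 1. The squares of 5 genes lie together between 43.2 and 67.4 and that of *Mag* lies at 0.0434, whereas the circles are spread from 0.784 to 81.2.

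The order of the genes by level differed between the populations. In Lgr5+ progenitors the FPKM was highest for *Fabp5* at 81.2, followed by *Sox10* at 39.5, *Cnp* at 15.6, *Mbp* at 10.7, *Mag* at 3.08 and *Pmp22* at 0.784. In Lgr6+ progenitors it was highest for *Mbp* at 67.4, followed by *Fabp5* at 65.3, *Pmp22* at 64.5, *Sox10* at 50.5, *Cnp* at 43.2 and *Mag* at 0.0434. The highest of the 6 genes was 104 times the lowest in Lgr5+ progenitors and 1552 times the lowest in Lgr6+ progenitors, where *Mag* was the lowest. Without *Mag*, the span of the other 5 genes was still 104 times in Lgr5+ progenitors and was 1.56 times in Lgr6+ progenitors. This leaves out the lowest gene of Lgr6+ progenitors but not that of Lgr5+ progenitors. The 104 times rests on *Pmp22* at 0.784, and the next lowest of the 5 genes there was *Mbp* at 10.7. Which neighbours in these orders differ by more than the spread between libraries is not known. These values come from sorted cells in bulk, where fewer cells of a type and less RNA per cell cannot be told apart.

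*Sox10* encodes the transcription factor of this set, and is known from the otic epithelium as well as from glia and melanocytes. It lies on chromosome 15 from 79154913 to 79164490, in GRCm38, the build that the positions of the table match. Its FPKM was 39.5 in the Lgr5+ and 50.5 in the Lgr6+ population, a ratio of 1.28 and a log2 difference of 0.35, which became 0.61 and passed 1.5-fold when both populations were scaled to the same sum of FPKM. Over all genes that sum was 754163 in the Lgr5+ and 627932 in the Lgr6+ population. The level of *Sox10* was exceeded by 17.8% of the kept genes in Lgr5+ progenitors and by 13.9% in Lgr6+ progenitors. Set against *Sox10* in the same population, *Mbp* stood at 27.0% in the Lgr5+ and 133% in the Lgr6+ population, *Cnp* at 39.6% and 85.6%, and *Pmp22* at 1.98% and 128%. The ratios of these 3 myelin genes to *Sox10* were thus each higher in Lgr6+ progenitors. For *Mag*, also a myelin gene, the ratio was lower in Lgr6+ progenitors, at 7.79% in the Lgr5+ and 0.086% in the Lgr6+ population. The ratio of *Fabp5* was lower there too, at 206% and 129%. A scaling of a whole population does not alter these ratios.

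*Sox8* and *Sox9* encode the other two SoxE factors, which share their DNA-binding domain with Sox10, and *Sox9* is likewise known from SCs. *Sox9* measured 53.8 FPKM in the Lgr5+ against 37.1 FPKM in the Lgr6+ population, a log2 difference of -0.52. *Sox8* had 1.10 and 1.27, a log2 difference of 0.11. None of the 3 SoxE genes was called. The level of *Sox9* was 1.36 times that of *Sox10* in Lgr5+ progenitors and 0.736 times in Lgr6+ progenitors, so the order of the pair differed.

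*Mbp* encodes myelin basic protein, which binds the cytoplasmic faces of the myelin membrane together, and its locus also gives rise to the golli transcripts outside myelin. It lies on chromosome 18 from 82475123 to 82585637. Its FPKM was 10.7 in the Lgr5+ and 67.4 in the Lgr6+ population, a ratio of 6.31 and a log2 difference of 2.55, and 2.19% of the kept genes had a larger difference in this direction. The value of the gene sums its transcripts, so golli and myelin transcripts were not told apart here.

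*Pmp22* encodes a membrane protein of compact peripheral myelin that other cells also make at lower levels. Its FPKM was 0.784 in the Lgr5+ and 64.5 in the Lgr6+ population, a ratio of 82.3 and a log2 difference of 5.20. Only 0.067% of the kept genes had a larger difference toward Lgr6+ progenitors. The table places *Pmp22* on chromosome 11 from 62951193 to 63386069, an interval of 434877 bases that it shares with *Cdrt4*, *Mir6354* and *Tekt3*. The RefSeq gene runs from 63128982 to 63159547, so the interval is 14.2 times as long as the gene. *Cdrt4* and *Mir6354* were listed at 0 in both populations, and *Tekt3* measured 0.167 FPKM in the Lgr5+ against 1.60 FPKM in the Lgr6+ population. The intervals of the other 5 genes of the set are shared with no other gene of the table.

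*Pmp22* is transcribed from more than one promoter, and the value of the gene sums over them. RefSeq holds 4 start windows for it in GRCm38.p6, with starts that span 3821 bases on the plus strand. The 250 bases before the first and before the last start are shown because the transcripts that begin there are combined in the single FPKM of 64.5. They were searched on both strands for ACAAAG and ACAATG, letters that Sox factors are known to bind, and for GCGTGGGCG and GCGGGGGCG, letters of Egr factors. Matches would stand in capitals, and none was found in any of the 4 windows, which says only that these letters are not in these bases. The first is chr11:63128732-63128981 and the last chr11:63132553-63132802.
Pmp22 first start: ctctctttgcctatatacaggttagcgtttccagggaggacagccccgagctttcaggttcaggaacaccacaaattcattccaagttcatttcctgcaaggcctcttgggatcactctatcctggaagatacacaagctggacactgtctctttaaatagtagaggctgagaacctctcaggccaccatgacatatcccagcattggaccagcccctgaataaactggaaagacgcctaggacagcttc
Pmp22 last start: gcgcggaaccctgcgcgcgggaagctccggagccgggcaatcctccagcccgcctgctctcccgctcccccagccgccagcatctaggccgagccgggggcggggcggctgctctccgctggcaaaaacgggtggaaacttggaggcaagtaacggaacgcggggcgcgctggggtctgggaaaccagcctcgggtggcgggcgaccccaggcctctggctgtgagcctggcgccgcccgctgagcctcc

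*Cnp* encodes an enzyme, the cyclic nucleotide phosphodiesterase CNPase, found in the uncompacted parts of myelin. It lies on chromosome 11 from 100574939 to 100581739. Its FPKM was 15.6 in the Lgr5+ and 43.2 in the Lgr6+ population, a ratio of 2.76 and a log2 difference of 1.41. The kept genes included 10.3% with a larger difference in this direction, so the difference of *Cnp* was the smallest of the 3 myelin genes higher in Lgr6+ progenitors.

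*Mag* encodes myelin-associated glycoprotein, an adhesion molecule on the inner membrane of the sheath that faces the axon. It lies on chromosome 7 from 30899183 to 30914832. Its FPKM was 3.08 in the Lgr5+ and 0.0434 in the Lgr6+ population, a log2 difference of -1.97, and 1.97% of the kept genes had a larger difference toward Lgr5+ progenitors. As a ratio of FPKM without the added 1, the Lgr5+ value was 70.9 times the Lgr6+ value. *Mag* was therefore the one myelin gene of the set that was lower in Lgr6+ progenitors, opposite to *Pmp22*, *Mbp* and *Cnp*.

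The windows of *Cnp* and *Mag* are shown because these genes, called in opposite directions, both hold the letters ACAAAG. Capitals mark the match, which reads CTTTGT where it lies on the other strand. In *Cnp* the match begins 167 bases before the start, in chr11:100574689-100574938 on the plus strand. In *Mag* it begins 126 bases before the start that lies nearest to the upper edge of the table's interval, in chr7:30914864-30915113 on the minus strand. An overlapping window of *Mag* holds the same match, and its remaining window, with the start at 30914321, holds none. Among the 250 bases before the start in all 32851 RefSeq windows, ACAAAG occurred in 16.5%, ACAATG in 10.7%, GCGGGGGCG in 2.57% and GCGTGGGCG in 0.536%. These shares are per window, whereas 3 windows were searched for *Mag*. The match is a description of the letters and not a binding site. RefSeq windows were used for 3 of the 6 genes.
Cnp: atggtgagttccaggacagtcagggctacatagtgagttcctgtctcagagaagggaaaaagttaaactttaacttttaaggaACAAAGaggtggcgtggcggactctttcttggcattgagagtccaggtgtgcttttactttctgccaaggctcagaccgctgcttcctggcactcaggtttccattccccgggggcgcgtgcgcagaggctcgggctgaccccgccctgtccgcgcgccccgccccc
Mag: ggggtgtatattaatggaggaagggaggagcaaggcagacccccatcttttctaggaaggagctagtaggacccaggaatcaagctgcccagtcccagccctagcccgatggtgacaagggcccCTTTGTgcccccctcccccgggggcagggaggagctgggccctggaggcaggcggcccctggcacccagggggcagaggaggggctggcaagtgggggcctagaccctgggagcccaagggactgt

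*Fabp5* encodes a fatty acid-binding protein of skin, nerve and many other tissues, which carries long-chain fatty acids within the cell and is known to increase in injured nerve. It lies on chromosome 3 from 10012585 to 10016610. Its FPKM was 81.2 in the Lgr5+ and 65.3 in the Lgr6+ population, a ratio of 1.24 and a log2 difference of -0.31. It was exceeded by 9.62% of the kept genes in Lgr5+ progenitors and by 11.0% in Lgr6+ progenitors; it had the highest Lgr5+ level of the set and, after *Mbp*, the next highest Lgr6+ level. RefSeq also lists a pseudogene copy, *Fabp5l2*, and how reads that match both were counted is not given in the sources used here.

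**Figure D2:**
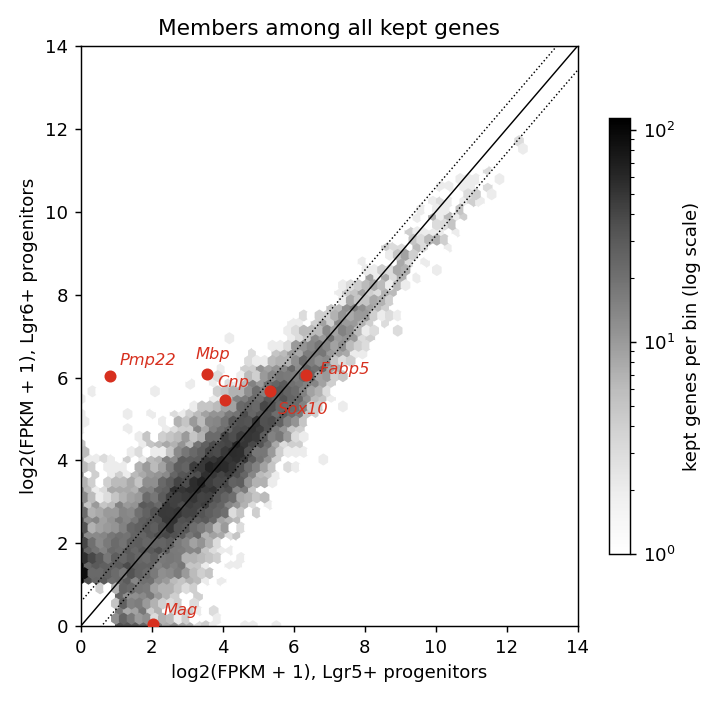
Each kept gene by its log2(FPKM + 1) in Lgr5+ progenitors on the horizontal axis and in Lgr6+ progenitors on the vertical axis, shaded by the number of genes per bin on a log scale, with the 6 genes in red, a solid line at equal levels and dotted lines at 1.5-fold. *Sox10* and *Fabp5* lie between the dotted lines, *Pmp22*, *Mbp* and *Cnp* above them and *Mag* below them.

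The depth behind the lowest values was read from steps in the table, because fragments are counted whole. Over 7050 genes with 1 annotated transcript, the product of FPKM and transcript length in kb, less 200 bases, gathered at 0.128 in Lgr5+ progenitors and at 0.0402 in Lgr6+ progenitors, a ratio of 3.19, so a single step is worth less FPKM in Lgr6+ progenitors. With the annotated transcripts of at least 1 kb, the *Pmp22* value in Lgr5+ progenitors corresponds to 9.8 to 9.9 steps and that in Lgr6+ progenitors to 2560 to 2600 steps. The *Mag* value corresponds to 49 to 53 steps in Lgr5+ progenitors and to 2.2 to 2.4 steps in Lgr6+ progenitors. The ratio of *Mag* therefore rests on a few steps on its low side, and whether a step is 1 fragment of 1 library is not known.

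For each gene, the 2 kept genes with the most similar pair of values were found by the distance between their log2(FPKM + 1) values over the 2 populations. For *Pmp22*, one of them was *Fcer1g*, a receptor subunit of myeloid cells, at a distance of 0.52. The nearest to *Mbp* were *Ramp2* and *Dnajb11*, at 0.15 and 0.17. For *Cnp* they were *Hadhb* and *Serinc3*, at 0.03 and 0.05, and for *Mag* they were *Grid1* and *Ndst3*, at 0.04 and 0.05. *Far1* and *Bbip1* lay nearest to *Sox10*, at 0.0043 and 0.02, and *Cct4* and *Fgfr3* nearest to *Fabp5*, both at 0.03. With 2 values per gene, such a likeness says only that the levels are alike.

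In a list of 18 genes of the myelin sheath, which includes *Mbp*, *Mag*, *Pmp22* and *Cnp*, 13 were kept, of which 9 were called as higher in Lgr6+ progenitors, 1 as higher in Lgr5+ progenitors and 3 were within 1.5-fold. Among the 14 that are not members, 9 were kept and 6 of these were called as higher in Lgr6+ progenitors and 0 as higher in Lgr5+ progenitors, with a median log2 difference of 1.11. Of the 7 genes of the list that reached 1 FPKM on both sides, 4 were called, all higher in Lgr6+ progenitors. Over all kept genes, 28.5% were called as higher in Lgr6+ and 23.3% as higher in Lgr5+ progenitors, the shares to set beside each list.

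*Mal*, *Cldn19* and *Prx*, which encode a raft protein, a tight junction protein and a scaffold of peripheral myelin, were listed at 0 in the Lgr5+ population and at 17.0, 5.13 and 2.89 FPKM in the Lgr6+ population. *Cmtm5* had 28.5 and 62.7, a log2 difference of 1.11. *Ncmap* had 10.9 and 7.03, a log2 difference of -0.56. *Ncmap*, like *Mag*, thus had the higher value in Lgr5+ progenitors, but was within 1.5-fold. *Mog* and *Mobp*, proteins of central myelin, were listed at 0 in both populations.

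**Figure D3:**
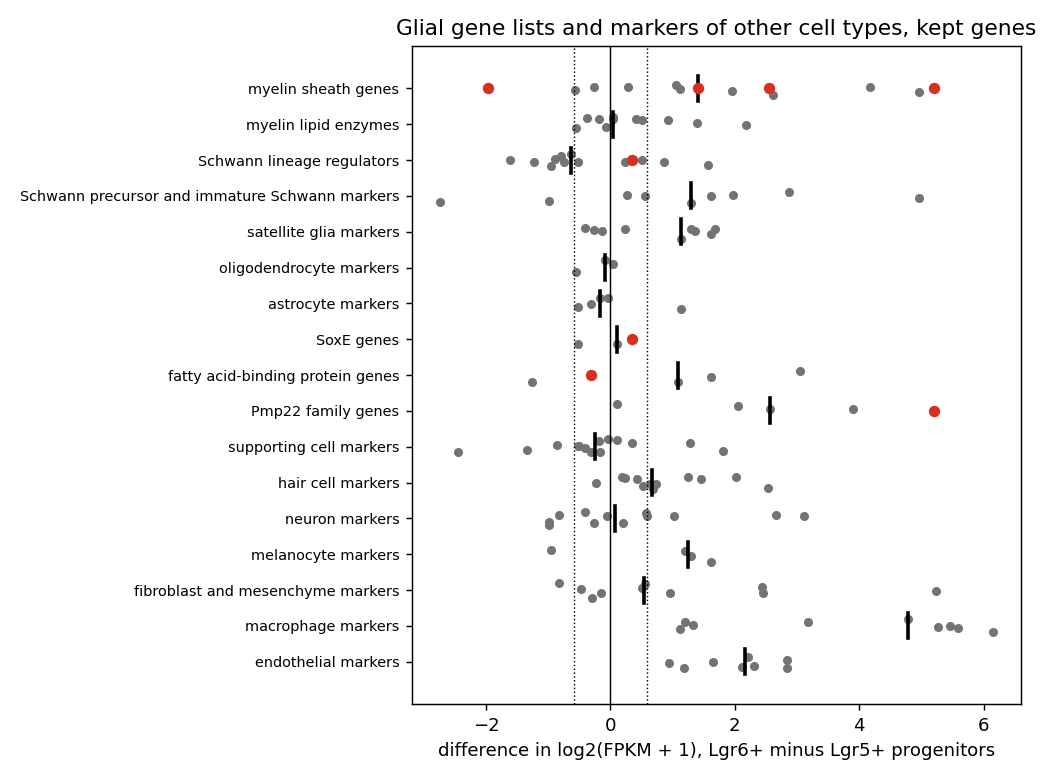
Difference in log2(FPKM + 1), Lgr6+ minus Lgr5+ progenitors, of each kept gene in the 17 lists, with genes of the set in red, other genes in grey, a bar at the median of each list and dotted lines at 1.5-fold. The medians run from -0.64 for Schwann lineage regulators to 4.79 for macrophage markers, and lie at 1.41 for myelin sheath genes.

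Regulators of the Schwann lineage did not share the direction of the sheath genes. Of 15 genes, including *Sox10*, 13 were kept, 2 were called as higher in Lgr6+ progenitors and 7 as higher in Lgr5+ progenitors, with a median log2 difference of -0.64. *Egr2*, a zinc finger factor of the myelin program that is also an immediate early gene, measured 62.5 FPKM in the Lgr5+ against 19.7 FPKM in the Lgr6+ population, a log2 difference of -1.62. *Pou3f1*, a POU factor of the promyelinating stage, had 0.391 and 3.14, a log2 difference of 1.57. *Erbb3*, the neuregulin receptor of Schwann cells, had 0.304 and 0.209 and was not kept, while its partner *Erbb2* had 15.1 and 7.27, a log2 difference of -0.96. *Adgrg6*, an adhesion receptor needed to start myelination that the table lists under its older symbol, had 20.2 and 29.2, a log2 difference of 0.51.

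Among 15 markers of Schwann precursors and immature Schwann cells, 9 were kept, 5 were called as higher in Lgr6+ progenitors and 2 as higher in Lgr5+ progenitors. Of the 6 that reached 1 FPKM on both sides, 3 were called as higher in Lgr6+ and 1 as higher in Lgr5+ progenitors. *Dhh*, a hedgehog ligand of Schwann cells, was listed at 0 in the Lgr5+ population and at 6.30 FPKM in the Lgr6+ population. *Gfra3*, a coreceptor for artemin, had 0.645 and 5.47, a log2 difference of 1.97. *Gap43*, a growth protein of axons and immature Schwann cells, had 20.3 and 2.19, a log2 difference of -2.74, and *Ngfr*, the low-affinity neurotrophin receptor, had 2.04 and 0.531. The lineage markers *Cdh19* and *Foxd3* stayed under an FPKM of 1 in both populations, with *Cdh19* at 0 and 0.147 and *Foxd3* at 0.0592 and 0. With *Erbb3* also under 1, these defining Schwann markers were near 0 in both populations, and the 6 genes are called by their names here and not taken as a measure of Schwann cells.

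Of 10 markers of satellite glia, 9 were kept, and 5 were called as higher in Lgr6+ progenitors and 0 as higher in Lgr5+ progenitors, with a median log2 difference of 1.13. Of the 8 that reached 1 FPKM on both sides, 4 were called, all higher in Lgr6+ progenitors. *Fabp7*, a fatty acid-binding protein of radial and satellite glia and of SCs, measured 446 FPKM in the Lgr5+ against 1370 FPKM in the Lgr6+ population, a log2 difference of 1.62. *Apoe*, a lipid carrier of glia and macrophages, had 98.0 and 315, a log2 difference of 1.68. *Kcnj10*, a glial potassium channel, had 2.83 and 2.50. Of 12 oligodendrocyte markers, 3 were kept and 0 were called, and 6, among them *Olig2*, *Opalin*, *Mog* and *Mobp*, were listed at 0 in both populations. The highest of them was *Nkx6-2*, a homeobox factor, at 13.0 and 12.2 FPKM. Of 9 astrocyte markers 5 were kept and *Slc1a3* alone was called, as higher in Lgr6+ progenitors, while *Gfap* was listed at 0 in both populations. The most abundant astrocyte markers were *Gjb6*, a gap junction gene, at 104 and 92.9 FPKM and *Fgfr3*, a growth factor receptor, at 82.5 and 66.1 FPKM, both also known from SCs.

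Beside *Fabp5*, the fatty acid-binding protein family has 9 other genes in the table. *Fabp7* exceeded *Fabp5* by 5.49 times in the Lgr5+ and by 21.0 times in the Lgr6+ population. *Fabp3*, the heart form, had an FPKM of 22.1 and 8.60, a log2 difference of -1.26. *Fabp1*, the liver form, and *Pmp2*, the form of peripheral myelin, were listed at 0 in the Lgr5+ population and at 7.28 and 1.13 in the Lgr6+ population. *Fabp2*, *Fabp4* and *Fabp9* were listed at 0 in both populations. The 2 abundant family members, *Fabp7* and *Fabp5*, thus had their higher values in different populations, but *Fabp5* was within 1.5-fold.

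*Pmp22* belongs to a family of small tetraspan membrane proteins. Of its 5 relatives examined here, *Emp3* measured 2.02 FPKM in the Lgr5+ against 44.2 FPKM in the Lgr6+ population, a log2 difference of 3.90. *Emp1* had 0.726 and 9.23, a log2 difference of 2.57, and *Perp* had 0.922 and 6.97, a log2 difference of 2.05. *Tmem47* had 8.75 and 9.54, a log2 difference of 0.11, and *Emp2* was under an FPKM of 1 in both. With *Pmp22*, 4 of the 5 kept genes of the family were called, all higher in Lgr6+ progenitors, and 1 of the 2 that reached 1 FPKM on both sides.

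**Figure D4:**
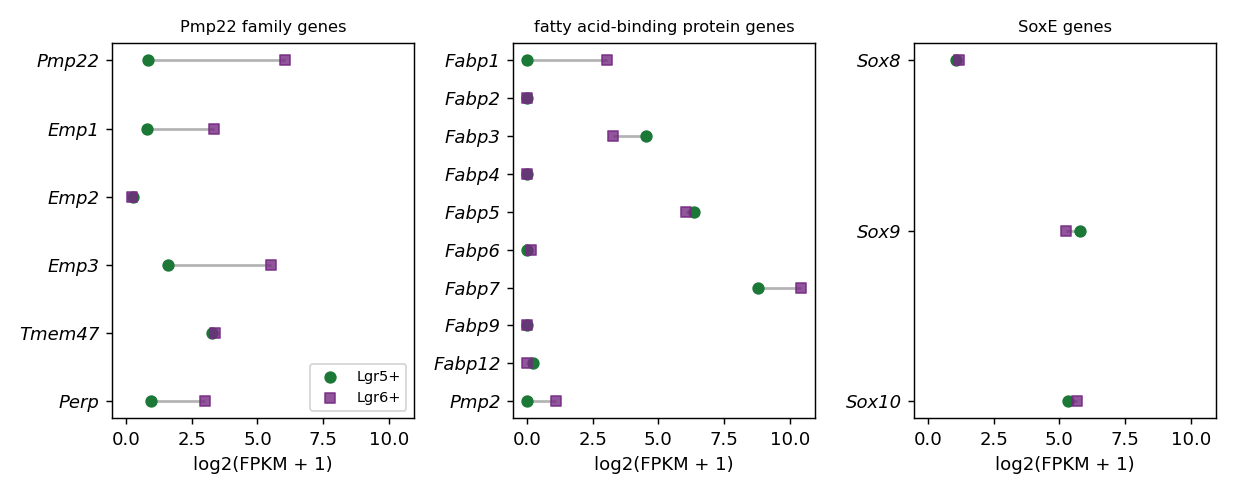
Log2(FPKM + 1) of *Pmp22*, *Fabp5* and *Sox10* beside their gene families, with circles for Lgr5+ and squares for Lgr6+ progenitors, each 1 combined value. *Pmp22*, *Emp1*, *Emp3* and *Perp* are farther right in Lgr6+ progenitors, *Fabp7* and *Fabp3* differ in opposite directions, and each SoxE gene has its 2 values within 1.5-fold.

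Markers of some other cell types were also higher in Lgr6+ progenitors. Of 10 macrophage markers, 9 were kept and all 9 were called as higher in Lgr6+ progenitors, but only 1 of them reached 1 FPKM on both sides. The others passed the filter through Lgr6+ progenitors alone, so a difference was built into their being kept. The summed FPKM over the list was 4.50 in the Lgr5+ and 266 in the Lgr6+ population, and 6 of the 10 were listed at 0 in Lgr5+ progenitors. All 8 endothelial markers were called as higher in Lgr6+ progenitors, 4 of them with 1 FPKM reached on both sides, and their summed FPKM was 17.2 and 103. Of 10 fibroblast and mesenchyme markers, 4 were called as higher in Lgr6+ progenitors and 1 as higher in Lgr5+ progenitors, with sums of 339 and 598. Most of the difference between these sums came from *Otos*, which had the largest log2 difference of the list at 5.24. The sums therefore give no direction for the other fibroblast and mesenchyme markers. The part of these cell types in the values of *Pmp22*, *Mbp* and *Cnp* was not tested.

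Of 12 kept neuron markers, 4 were called as higher in Lgr6+ progenitors and 3 as higher in Lgr5+ progenitors, and their list summed to 370 and 287. *Isl1* was the largest part of both sums, at 233 and 117 FPKM. Its difference was larger than that of the sums, which therefore give no direction for the other neuron markers. The calls were 33.3% and 25.0% of the kept neuron markers, near the 28.5% and 23.3% of all kept genes. Of 8 melanocyte markers, 4 were kept, 3 were called as higher in Lgr6+ progenitors and 1 as higher in Lgr5+ progenitors, and the pigment cell genes *Tyrp1* and *Mlana* were listed at 0 in both. All 12 hair cell markers were kept, with 7 called as higher in Lgr6+ progenitors and 0 as higher in Lgr5+ progenitors and sums of 1050 and 1490. The sort genes themselves did not part the populations by label. *Lgr5* had 9.65 and 25.0 FPKM and was called as higher in Lgr6+ progenitors, and *Lgr6* had 2.06 and 2.90 and was within 1.5-fold. The paper describes the Lgr6+ cells as a subpopulation of the Lgr5+ progenitors. All 14 SC markers, including *Sox2* at 140 and 54.8, were kept, with 2 called as higher in Lgr6+ progenitors and 3 as higher in Lgr5+ progenitors and sums of 4557 and 4808. The 6 genes of the set summed to 151 in the Lgr5+ and 291 in the Lgr6+ population.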

How the data were processed

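The authors sorted EGFP+ cells from cochleae, made libraries with a low-input cDNA kit, used Trimmomatic for trimming and TopHat for mapping, annotated genes by RefGene and calculated FPKM with Cufflinks. Program versions are not given in the sources used here. The paper names mm9 and the submitters' processing notes name mm10. The intervals of the deposited table overlapped the RefSeq gene of GRCm38.p6 for 98.8% of 22500 shared symbols, and its starts count from 0, so 1 was added. The authors' deposited FPKM is 1 value per population with the libraries combined. The other columns hold the authors' own fold changes and significance values and were not used.

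Genes that reached 1 FPKM in either population were kept, and compared as log2(FPKM + 1), with a pseudocount of 1. A gene was called at 1.5-fold, the size used in the study. The study also asked for expression above background and a *p*-value below its cutoff, so a call here is not its differential expression. No test was possible, since there are no values per library, and the depth per library is unknown. The 17 gene lists hold textbook markers, named by extremes of level and difference in each list, by values of 0 and as checks of cell type. Members and lists were chosen with earlier results of these data known. One list gene was matched by an older symbol. Some list genes are counted but their values are not reported here. The call rule was tested on simulated data. Promoter letters came from RefSeq (GRCm38.p6), and transcript lengths for the steps from GENCODE vM1. Python 3.11.15, numpy 2.4.6, pandas 2.3.3 and matplotlib 3.10.9 were used. Alternatives were a pseudocount of 0.1, other filters, other scalings and a 2-fold threshold.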

Additional observations from a re-analysis of the deposited data

How the results depend on the processing

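No paired analysis was possible because the table holds 1 combined value per population, and for the same reason no library could be left out. Across 8 alternatives, the log2 differences of the 6 genes kept their direction in all 45 values that could be computed, and 44 stayed on the same side of the fold threshold. The filters and the 2-fold threshold leave a log2 difference as it is, and a smaller pseudocount cannot reverse it. Only the other scalings could have changed a direction, so most of this agreement was fixed in advance. The log2 differences ran from 5.01 to 6.19 for *Pmp22*, from 2.55 to 2.84 for *Mbp*, from 1.41 to 1.68 for *Cnp*, from 0.34 to 0.61 for *Sox10*, from -0.32 to -0.05 for *Fabp5* and from -4.47 to -1.97 for *Mag*. The exception was *Sox10*, which passed 1.5-fold at a log2 difference of 0.61 when each population was scaled to a sum of 1000000, a scaling that moved the median of all kept genes by 0.24. At a minimum FPKM of 5, *Mag* was not kept and 0 of the 6 genes were called as higher in Lgr5+ progenitors, with 2415 of all genes higher in Lgr6+ progenitors and 7 glial list genes higher in Lgr5+ progenitors in place of 11. When 1 FPKM was required on both sides, *Mag* and *Pmp22* were not kept, 0 of the 6 genes were called as higher in Lgr5+ progenitors, and the genes higher in Lgr6+ progenitors were 2392 of all genes and 12 glial list genes in place of 26. At 2-fold, 2443 of all genes were higher in Lgr6+ progenitors and 1575 in Lgr5+ progenitors, in place of 3826 and 3136, and 5 glial list genes were higher in Lgr5+ progenitors. These alternatives test fewer genes or ask a larger difference by construction. Depth limits *Mag* in Lgr6+ progenitors and *Pmp22* in Lgr5+ progenitors most.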

Other observations

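Enzymes that make the lipids of myelin were mostly within 1.5-fold. Of 12 such genes 11 were kept, 3 were called as higher in Lgr6+ progenitors and 0 as higher in Lgr5+ progenitors, with a median log2 difference of 0.05. The calls were 27.3% and 0.0% of the kept enzymes, against 28.5% and 23.3% of all kept genes. *Degs1*, the desaturase that completes ceramide, measured 3.52 FPKM in the Lgr5+ against 19.5 FPKM in the Lgr6+ population, a log2 difference of 2.18. *Sqle*, an enzyme of cholesterol synthesis, had 11.8 and 23.3, a log2 difference of 0.93. *Fa2h*, which hydroxylates the fatty acids of myelin lipids, was listed at 0 in the Lgr5+ population and at 1.62 in the Lgr6+ population. *Ugt8a*, which makes the galactolipids of myelin, had 7.87 and 5.87, and *Fasn*, the fatty acid synthase, had 24.4 and 25.1. Over the 10 glial lists together, 67 of 97 genes were kept, with 26 called as higher in Lgr6+ progenitors and 11 as higher in Lgr5+ progenitors and a median log2 difference of 0.23. The calls were 38.8% and 16.4% of the kept list genes, against 28.5% and 23.3% of all kept genes. With 1 FPKM required on both sides, 50 glial list genes remained, of which 12 were called as higher in Lgr6+ progenitors and 9 as higher in Lgr5+ progenitors.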
